A study of Mus musculus with 9 samples.

Results

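Lysosomes are acidic organelles in which proteases, glycosidases, sulfatases and lipases break down material that a cell has taken up or sorted for destruction. Their membrane carries heavily glycosylated proteins that protect it, channels and transporters, and a proton pump keeps the lumen acidic. Monocytes and the macrophages they give rise to are phagocytes and are known for a high content of these enzymes. A set of 31 lysosomal genes was examined in circulating mouse monocytes. The genes were taken by symbol from the annotation of the array's transcript clusters, the probe groups that each give 1 value per array. All 31 were found among the 19938 genes that have a cluster of their own. Arsb was the 1 member with more than 1 cluster, and the brightest of its clusters by mean log2 was used. By role they are 10 proteases and peptidases, 8 glycosidases and sulfatases, 7 genes of lipid handling and activator proteins, and 6 membrane proteins.

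Monocytes came from the blood of tumor-free mice of 3 genotypes, aged 14 to 18 weeks: wild type Balb/cJ, Ccl2-/- and Ccr2-/-, both knockouts on the Balb/cJ background and backcrossed to it from time to time. Each genotype had 3 Affymetrix Mouse Gene 1.0 ST arrays, and each array held RNA of 5 pooled mice, so that every p-value measures the spread between pools. Both deletions are present in all cells of the animal from the germline on. CCL2 is a ligand of the receptor CCR2, and the study names further high affinity ligands of that receptor. Magnetic purification used antibodies to CCR3, MHC class II, Ly-6G, B220, CD8 and CD4 for depletion, and CD11b for positive selection. Monocytes as defined in the study also lack NK1.1 and CD11c, for which no depletion antibody is listed.

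The deposited values are linear dChip intensities. Log2 intensities of the genotypes were compared with limma, p-values were adjusted over all 19938 genes by the Benjamini-Hochberg method, and a gene is said to have risen or fallen only at an adjusted p under 0.05. Ccr2 read 9818, 8302 and 8110 in the wild type arrays and 681, 694 and 708 in the Ccr2-/- arrays. The Ccl2 probe set was not lower in Ccl2-/- monocytes, and it checks nothing, because the sources used here do not say where its probes lie relative to the deletion. The median intensity of an array was 324.1 to 355.1, except in Ccl2-/- replicate 1, where it was 430.8. The monocyte genes Csf1r, the receptor for the monocyte growth factor CSF-1, and Lyz2, lysozyme, had an intensity of at least 6627 in every array. The same held for Itgam and Spi1. Other monocyte markers were dimmer, namely Adgre1 at 2090 to 4268, Cebpb at 1797 to 2818, Fcgr1 at 963 to 2703 and Cd14 at 303 to 976. Markers of NK cells were also present in every array, with Ncr1 at 6319 to 10850. The files hold no detection calls.

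Sequence near the start sites is shown for 5 members, because the transcription factors TFEB, TFE3 and MITF, which are described further on, are known to bind an element with the core TCACGTGA, called the CLEAR element, in promoters of lysosomal genes. That core contains the shorter E-box core CACGTG, and both read the same on the 2 strands. RefSeq promoter windows of GRCm38.p6, from 250 bases before to 50 bases after a start site, were at hand for 26 of the 31 members. The stretches are printed 5′ to 3′ on the strand of the gene, with a CLEAR core in capitals for the first 3 members and 1 E-box core in capitals for Lamp1 and Ctsl.
Ctsd, chr7:142387894-142387951, minus strand: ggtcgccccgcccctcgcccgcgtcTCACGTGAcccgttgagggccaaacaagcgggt
Mcoln1, chr8:3500448-3500505, plus strand: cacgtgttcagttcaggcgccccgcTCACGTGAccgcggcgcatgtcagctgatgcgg
Ctsa, chr2:164833735-164833772, plus strand: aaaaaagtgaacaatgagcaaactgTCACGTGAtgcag
Lamp1, chr8:13159075-13159130, plus strand: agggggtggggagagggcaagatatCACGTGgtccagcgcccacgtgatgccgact
Ctsl, chr13:64370726-64370770, minus strand: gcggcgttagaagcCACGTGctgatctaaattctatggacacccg
The core lay 99 bases before the start site in Ctsd, 46 bases before it in Mcoln1 and 13 bases before it in Ctsa, where a further such core began 4 bases after the start site. A further E-box core began 245 bases before the start site in Ctsd, outside the printed stretch. In Mcoln1 a further E-box core began 71 bases before the start site and opens the stretch in lower case. The capitals in Lamp1 mark the first of 4 E-box cores, which began 61, 45, 28 and 15 bases before the start site. The core in Ctsl began 236 bases before its start site. An E-box core was found in 8 of the 26 members with a window, or 30.8%, namely Ctsa, Ctsd, Ctsl, Gaa, Glb1, Lamp1, Lgmn and Mcoln1. The share was 8.09% of the 27025 genes in the whole table. The longer core was found in 3 of the 26, or 11.5%, against 1.12% of all genes. Neither core was particular to the members. Of 85 further lysosomal genes with a window, from lists described further on, 20 (23.5%) held the E-box core and 12 (14.1%) the longer core. These matches describe letters in a window and not sites in use.

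The question of the Ccr2-/- arrays was how the loss of the receptor alters the monocyte transcriptome. Most lysosomal genes read lower in Ccr2-/- than in wild type monocytes. Of the 31 members, 26 fell, 1 rose and 4 did not pass the test. Over all genes, 8.38% fell and 4.91% rose. All members but Cd63 had a mean intensity over 1000, and of the 5549 genes that bright, 19.5% fell and 10.9% rose. The median log2 change of the 31 members was -0.484, or 0.715-fold, beside 0.009 over all genes. The 3 Ccr2-/- arrays lay wholly outside the range of the 3 wild type arrays for 29 of 31 members, all but Arsb and Cd63, and this was so for 33.9% of all genes. With bulk RNA, fewer cells of a type and less RNA per cell cannot be told apart.

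**Figure D1:**
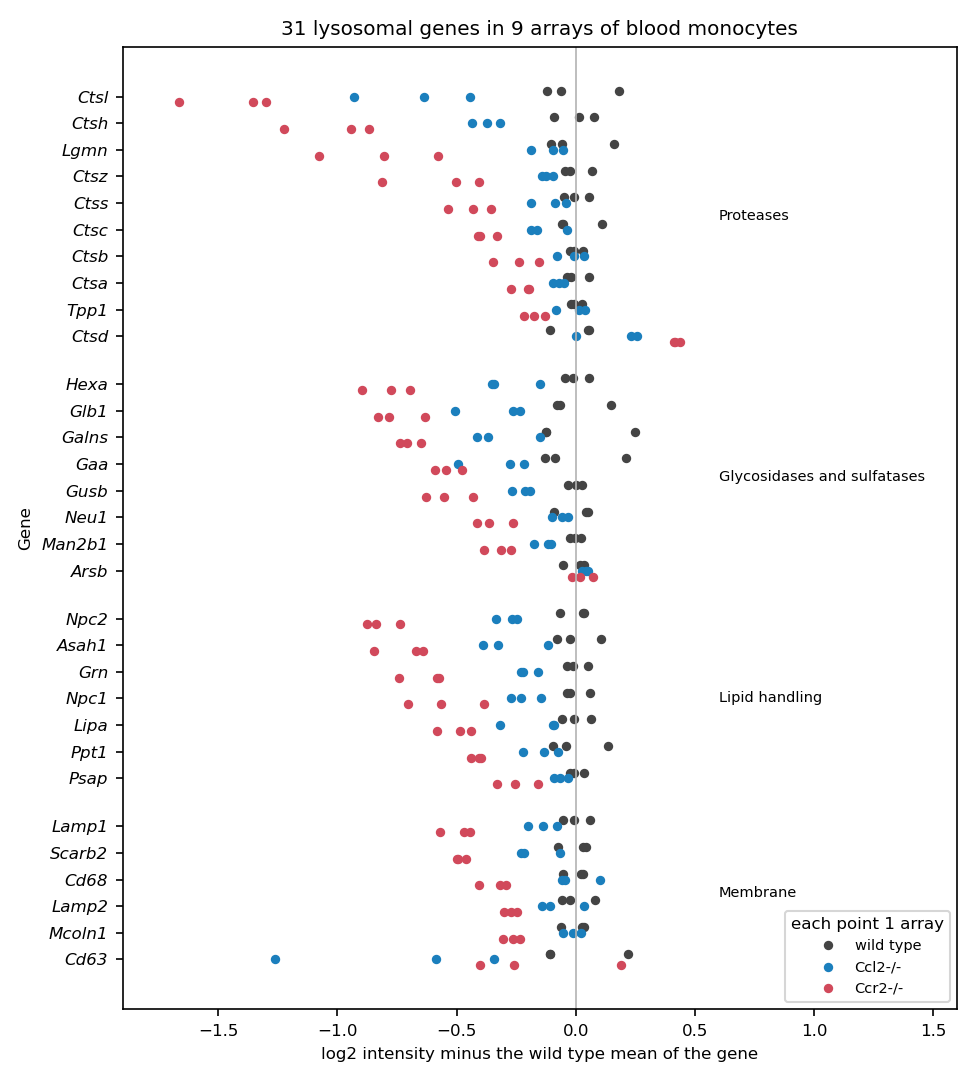
Log2 intensity of each of the 31 lysosomal genes (rows, grouped by role) in each of the 9 arrays, minus the mean of the gene's wild type arrays. Each point is 1 array. For 29 of the 31 genes the 3 Ccr2-/- points do not overlap the wild type points, and for 28 of them they lie to the left.

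The proteases held both the largest falls and the single rise. Ctsl, cathepsin L, a cysteine protease with broad specificity, read 2158, 1826 and 1753 in wild type, 999, 1224 and 1399 in Ccl2-/- and 601, 774 and 746 in Ccr2-/- monocytes. The 3 genotypes did not overlap. In Ccr2-/- monocytes Ctsl was at 0.369-fold (95% interval 0.291 to 0.468, limma adjusted p = 0.000829). Ctsh, cathepsin H, an aminopeptidase as well as an endopeptidase, read 6379, 6118 and 5677 in wild type and 2587, 3148 and 3318 in Ccr2-/- monocytes, a fold of 0.496 (0.422 to 0.582, adjusted p = 0.000746). Its Ccl2-/- arrays lay between these, at 4476, 4669 and 4860. Lgmn, legumain, which cuts after asparagine and processes cathepsins, read 4313, 3705 and 3595 in wild type, 3615, 3393 and 3717 in Ccl2-/- and 1830, 2207 and 2589 in Ccr2-/- monocytes. Its wild type and Ccl2-/- arrays overlapped, and the Ccr2-/- arrays were below both at 0.567-fold of wild type (0.462 to 0.696, adjusted p = 0.00378).

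Smaller falls were seen in further cathepsins. Ctsz, a carboxypeptidase, was 0.672-fold of wild type (adjusted p = 0.00707), and Ctss, cathepsin S, which trims the invariant chain of MHC class II, was 0.737-fold (adjusted p = 0.00498). Ctsc, which activates granzymes and other serine proteases of granules, was 0.768-fold (adjusted p = 0.0107), a call lost without Ccr2-/- replicate 2 (adjusted p = 0.0517). Ctsa, which shields beta-galactosidase and neuraminidase, was 0.857-fold (adjusted p = 0.0419), and this call was lost when any array other than Ccl2-/- replicate 1 was left out (adjusted p up to 0.16).

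Ctsd, cathepsin D, the main aspartic protease of lysosomes, went the other way. It read 6386, 6405 and 5719 in wild type, 7371, 7229 and 6160 in Ccl2-/- and 8234, 8200 and 8343 in Ccr2-/- monocytes. The Ccr2-/- arrays were above all others, and the wild type and Ccl2-/- arrays overlapped. Ctsd rose 1.34-fold in Ccr2-/- monocytes (1.17 to 1.54, adjusted p = 0.0126). Without Ccr2-/- replicate 2 or without wild type replicate 3 the rise no longer passed, with an adjusted p of up to 0.0534. Ctsb, cathepsin B, was 0.844-fold without passing the test (adjusted p = 0.0566), although it passed when Ccl2-/- replicate 1 or Ccr2-/- replicate 3 was left out (adjusted p down to 0.0381). Tpp1, a tripeptidyl peptidase, was 0.887-fold (adjusted p = 0.121).

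**Figure D2:**
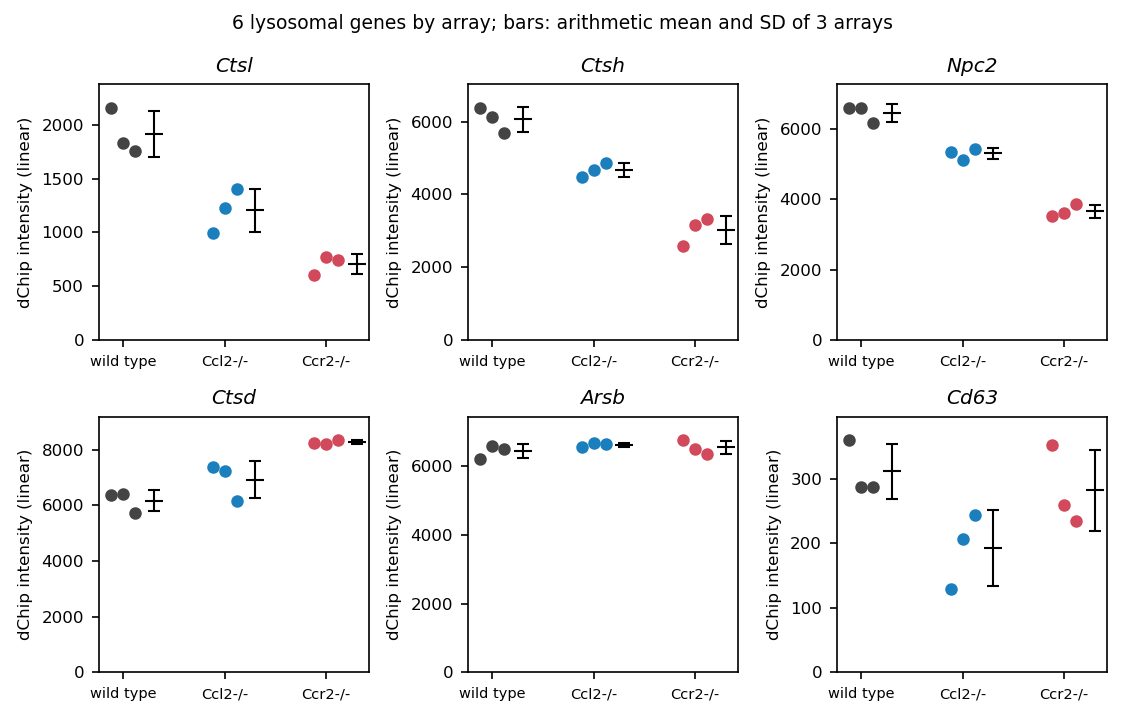
Linear dChip intensity by array (points) for 6 lysosomal genes in the 3 genotypes, with the arithmetic mean and SD of the 3 arrays beside them and each vertical axis starting at 0. Ctsl, Ctsh and Npc2 step down from wild type to Ccl2-/- to Ccr2-/-, Ctsd is highest in Ccr2-/-, and Arsb and Cd63 overlap between wild type and Ccr2-/-.

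Among the 8 glycosidases and sulfatases, 7 fell and none rose, with a median log2 change of -0.537. Hexa, the alpha subunit of beta-hexosaminidase, which degrades GM2 ganglioside, read 5238, 5006 and 4885 in wild type, 3975, 3957 and 4541 in Ccl2-/- and 2709, 2946 and 3117 in Ccr2-/- monocytes. The ranges of the 3 genotypes were apart, and the Ccr2-/- level was 0.579-fold of wild type (0.508 to 0.661, adjusted p = 0.00083). Glb1, the acid beta-galactosidase, was 0.596-fold (adjusted p = 0.00209), with wild type arrays at 1350 to 1581 and Ccr2-/- arrays at 803 to 922. Galns, the sulfatase that acts on keratan sulfate, was 0.616-fold (adjusted p = 0.00505).

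Gusb, beta-glucuronidase, was at 0.69-fold (adjusted p = 0.00145). Gaa, the acid alpha-glucosidase that degrades glycogen, was 0.689-fold (adjusted p = 0.0129), which was lost without Ccr2-/- replicate 1 (adjusted p = 0.0589). Man2b1, the alpha-mannosidase, was 0.8-fold (adjusted p = 0.00846). Neu1, the sialidase that Ctsa protects, was 0.786-fold (adjusted p = 0.0123), and it did not pass without Ccr2-/- replicate 1, wild type replicate 1 or wild type replicate 2 (adjusted p up to 0.0583). Arsb, arylsulfatase B, which acts on dermatan sulfate, was the exception in this group. It read 6208 to 6606 in wild type, 6568 to 6681 in Ccl2-/- and 6374 to 6771 in Ccr2-/- arrays, and its log2 change was 0.02 with a 95% interval of -0.11 to 0.16.

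All 7 genes of lipid handling and activator proteins fell, with a median log2 change of -0.55. Npc2, the soluble carrier that binds cholesterol in the lumen, read 6591, 6596 and 6162 in wild type, 5350, 5117 and 5436 in Ccl2-/- and 3512, 3603 and 3868 in Ccr2-/- monocytes. The genotypes were again apart, and the Ccr2-/- level was 0.567-fold of wild type (0.51 to 0.631, adjusted p = 0.00053). Npc1, the membrane protein that receives cholesterol from NPC2, was 0.683-fold (adjusted p = 0.00444). Asah1, acid ceramidase, spanned 4928 to 5603 in the wild type arrays and 2900 to 3338 in the Ccr2-/- arrays, or 0.607-fold (adjusted p = 0.00179). Grn, progranulin, was 0.645-fold (adjusted p = 0.000912). Lipa, the acid lipase that frees cholesterol from its esters, was 0.706-fold (adjusted p = 0.00491). Ppt1, which removes palmitate from proteins, was 0.75-fold (adjusted p = 0.00856). Psap, the precursor of the saposins that help glycosidases reach lipids, changed least in this group, to 0.843-fold (adjusted p = 0.0412). Leaving out Ccl2-/- replicate 2, Ccr2-/- replicate 1 or 2, or any wild type array ended the call of Psap (adjusted p up to 0.154).

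Of the 6 membrane proteins 5 fell and none rose, with a median log2 change of -0.305. Lamp1, an abundant glycoprotein of the lysosomal membrane, read 8644, 8250 and 7988 in wild type, 7532, 7210 and 7850 in Ccl2-/- and 5591, 5993 and 6092 in Ccr2-/- monocytes, and the groups did not overlap. Its fold was 0.71 in Ccr2-/- monocytes (0.638 to 0.791, adjusted p = 0.00203). Scarb2, the receptor that carries glucocerebrosidase to lysosomes, was 0.715-fold (adjusted p = 0.00248). Cd68, which is widely used as a macrophage marker, was 0.791-fold (adjusted p = 0.0138), a call lost without Ccr2-/- replicate 1 or 2 or wild type replicate 1 or 3 (adjusted p up to 0.0627). Mcoln1, a calcium channel of the lysosome, was 0.831-fold (adjusted p = 0.021), lost without any 1 of the Ccr2-/- arrays or wild type replicate 2 or 3 (adjusted p up to 0.0882). Lamp2, which takes part in autophagy, was 0.828-fold (adjusted p = 0.0394), and it was lost without Ccl2-/- replicate 2 or any array of the other genotypes (adjusted p up to 0.153). Cd63, a tetraspanin of late endosomes and granules, had wild type arrays at 287 to 360 and Ccr2-/- arrays at 234 to 353, and its log2 change of -0.16 had an interval from -0.72 to 0.40.

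Of the 27 calls, 18 held whichever array was left out, and 17 of these also held under every other setting tried: Ctsh, Ctsl, Ctss, Ctsz, Lgmn, Glb1, Hexa, Gusb, Galns, Lipa, Ppt1, Asah1, Grn, Npc1, Npc2, Lamp1 and Scarb2. Centring the arrays on their medians left 19 calls, without Ctsa, Ctsc, Gaa, Man2b1, Psap, Lamp2, Cd68 and Mcoln1. Under the size limits that the study's methods give, a ratio over 1.2 and a difference over 100 between group means, 24 members were lower and 1 was higher, beside 9.21% and 6.56% of all genes.

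**Figure D3:**
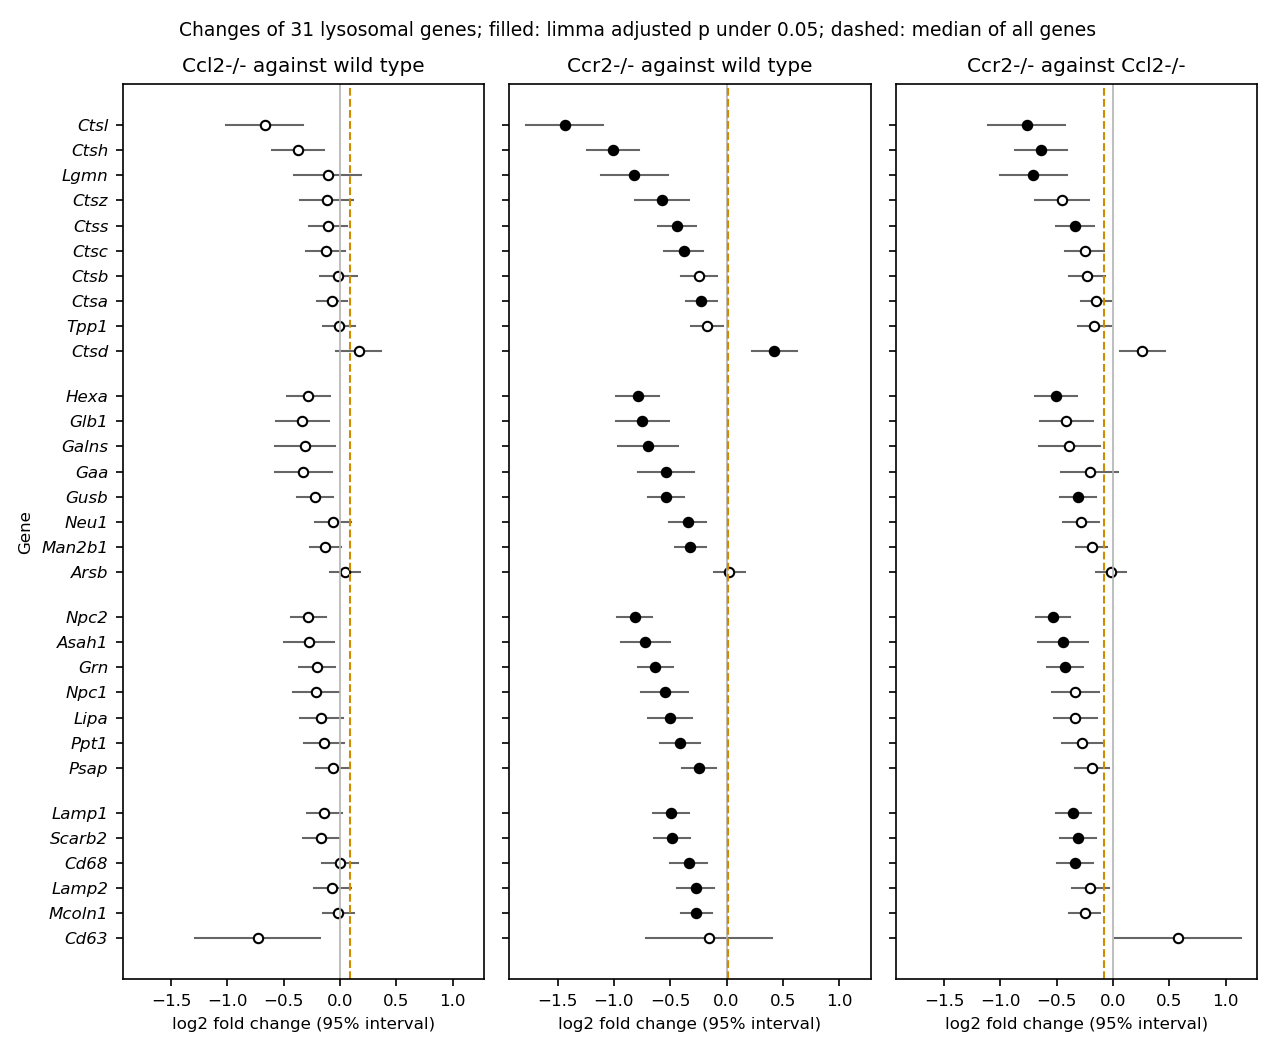
Log2 fold change of each lysosomal gene (rows, grouped by role) with its 95% interval from limma in 3 comparisons. Filled points passed an adjusted p under 0.05 (0, 27 and 12 genes), and the dashed line is the median of all genes (0.084, 0.009 and -0.082).

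Ccl2-/- mice lack the ligand CCL2 and keep the genes of the receptor and of its other ligands. None of the 31 members passed limma's test against wild type, where 0.0853% of all genes fell and 0.0752% rose, and of genes with a mean intensity over 1000, 0.126% fell and 0.18% rose. Before adjustment 13 members had a p under 0.05, all of them lower, beside 6.32% of all genes that were lower at that p. In group means 29 of 31 were lower than wild type, with a median log2 change of -0.139, while the median over all genes was 0.084. When each array was centred on its median, these became -0.255 and -0.032. The Ccl2-/- arrays lay outside the wild type range for 18 members, beside 18.7% of all genes, and 9 members were past the size limits, all lower, beside 3.76% of all genes that were lower and 7.84% that were higher by these limits.

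The member with the smallest p was Ctsl, at 0.628-fold of wild type (0.495 to 0.797, limma adjusted p = 0.113). It passed when Ccl2-/- replicate 3, the highest of its group at 1399, was left out (adjusted p = 0.0469). Npc2 was 0.822-fold (adjusted p = 0.13), and Ctsh was 0.771-fold (adjusted p = 0.178). Hexa was 0.823-fold (adjusted p = 0.211) and Glb1 0.794-fold (adjusted p = 0.229). Cd63 stood apart in its spread. It read 360, 287 and 287 in wild type and 129, 206 and 244 in Ccl2-/- monocytes, groups that did not overlap, at 0.602-fold with an interval of 0.409 to 0.886 (adjusted p = 0.26). Ctsd was 1.12-fold (0.976 to 1.28, adjusted p = 0.453). For Cd68 the log2 change had an interval of -0.16 to 0.16, and its 8227 to 9179 in Ccl2-/- arrays overlapped the 8250 to 8754 of wild type.

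Both knockouts were compared with the same wild type arrays, so the difference between them was tested directly. Of the 31 members, 12 fell in Ccr2-/- against Ccl2-/- monocytes and 0 rose, where 2.87% of all genes fell and 0.732% rose, and of genes with a mean intensity over 1000, 7.84% fell and 1.03% rose. The 12 were Ctsh, Ctsl, Ctss, Lgmn, Hexa, Gusb, Asah1, Grn, Npc2, Lamp1, Cd68 and Scarb2. The median log2 change was -0.315, beside -0.082 over all genes, and the arrays of the knockouts did not overlap for 28 members, beside 23.6% of all genes. By the size limits 19 members were lower and 0 higher, beside 9.16% and 3.47% of all genes. Npc2 had the smallest p, at 0.69-fold (0.621 to 0.768, adjusted p = 0.013). Ctsl was 0.588-fold (adjusted p = 0.0337), Lgmn was 0.612-fold (adjusted p = 0.0274), and Ctsh was 0.643-fold (adjusted p = 0.02). Each of the 12 calls was lost without at least 1 array. None of them remained without Ccr2-/- replicate 1 or without Ccr2-/- replicate 2, and none when arrays were centred on their medians or in a fit of the 6 arrays compared. Without Ccl2-/- replicate 1, the array with the high median, 13 members fell.

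The order of the group means was wild type, then Ccl2-/-, then Ccr2-/- for 28 of 31 members. The share of all genes in this order was not counted. The neighbours wild type and Ccl2-/- passed the test for 0 of 31, and the neighbours Ccl2-/- and Ccr2-/- for the 12 named above, although the arrays of these neighbours did not overlap for 18 and 28 members. Ctsd ran in the opposite order, Cd63 was lowest in Ccl2-/- monocytes, and Arsb was highest there. The places of Arsb and of Cd68 rested on differences that changed sign under another scaling of the arrays. In Ccl2-/- against wild type, the differences of Ctsb, Tpp1, Mcoln1 and Cd68 also changed sign when some single arrays were left out. Averaged over the 31 genes, the log2 intensity was 12.23, 12.14 and 12.11 in the wild type arrays, 11.92, 11.97 and 12.06 in the Ccl2-/- arrays, and 11.62, 11.70 and 11.73 in the Ccr2-/- arrays.

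Arrays of a genotype also differed from each other across many members at once. Wild type replicate 1 held the highest of its group for 23 of 31 members, Ccl2-/- replicate 3 for 25 and Ccr2-/- replicate 3 for 19. Ccr2-/- replicate 1 held the lowest of its group for 24. The SD between arrays of a genotype was small, with a median over the members of 0.06 to 0.07 on the log2 scale. The widest within each genotype was that of Galns in wild type (0.22) and of Cd63 in Ccl2-/- (0.47) and Ccr2-/- monocytes (0.31).

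Marker genes of the cell types in the samples moved with genotype as well, and their part in the lysosomal values was not tested. Of 9 measured monocyte and macrophage markers, 1 of which is the member Cd68, 7 fell in Ccr2-/- monocytes, with a median log2 change of -0.366. Their summed intensity was 58820 to 61725 in wild type, 56030 to 61894 in Ccl2-/- and 47016 to 50883 in Ccr2-/- arrays. Itgam, which encodes the CD11b used for selection, had a log2 change of 0.04 (adjusted p = 0.867), and Csf1r was 0.776-fold (adjusted p = 0.00964). All 13 measured NK cell markers rose, with a median log2 change of 0.785, and their sum went from 60870 to 66465 in wild type to 102300 to 105512 in Ccr2-/- arrays. In Ccl2-/- arrays that sum was 76130 to 91018, with 13 of 13 higher than wild type and 1 past the test.

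Markers of Ly-6Chi monocytes, the CCR2-bearing inflammatory subset, fell for 8 of 8 measured genes in Ccr2-/- monocytes, Ccr2 itself among them. Their sum was 29226 to 39189 in wild type, 20741 to 24995 in Ccl2-/- and 8405 to 9890 in Ccr2-/- arrays. That sum includes the deleted gene Ccr2, at 8110 to 9818 in wild type, 6238 to 7822 in Ccl2-/- and 681 to 708 in Ccr2-/- arrays. Of 10 Ly-6Clo markers, 2 rose and 8 did not pass, with wild type sums of 51631 to 60324 and Ccr2-/- sums of 56761 to 59578. Sums of 7 T cell markers were 5987 to 6362 in wild type, 2717 to 5892 in Ccl2-/- and 2767 to 10952 in Ccr2-/- arrays, and none passed the test. Of 7 dendritic cell markers 3 fell. Of 5 eosinophil markers, Ccr3 rose and 4 did not pass. Ccr3 lies on chromosome 9, as does the targeted gene Ccr2, and so do the members Ctsh, Glb1 and Hexa, which fell. Whether that place bears on any of these changes was not tested. None passed among markers of B cells, neutrophils, basophils and mast cells, or platelets and erythroid cells.

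**Figure D4:**
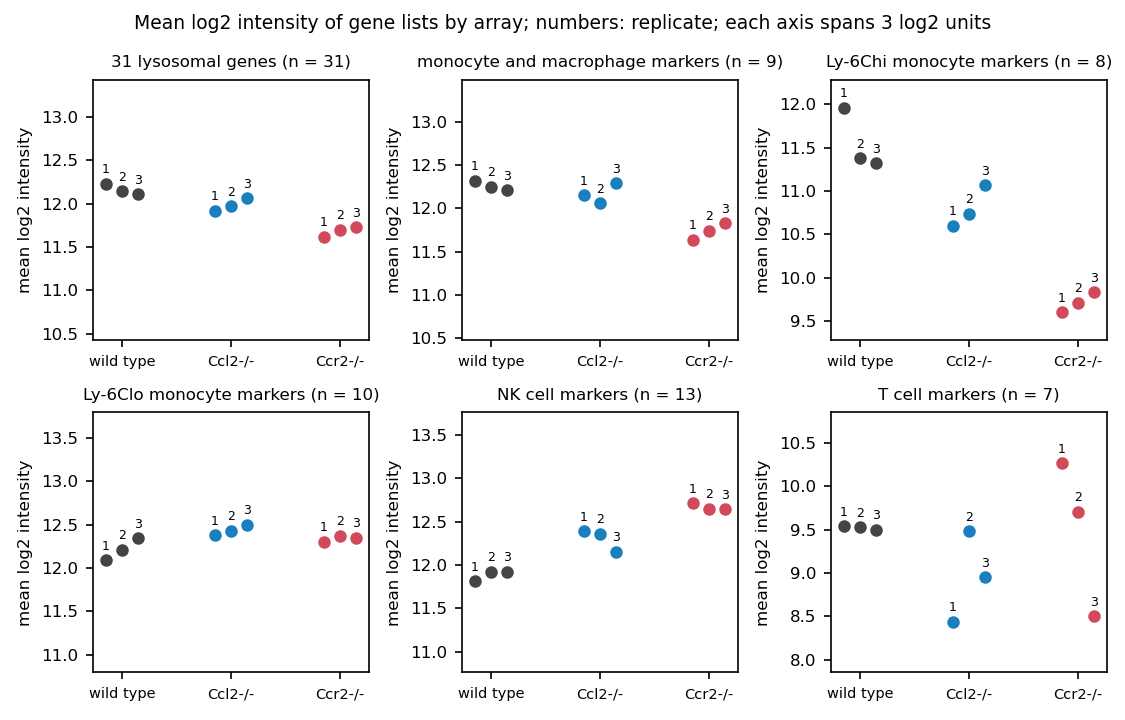
Mean log2 intensity of the 31 lysosomal genes and of 5 lists of cell type markers in each array (points, numbered by replicate), with every vertical axis spanning the same log2 width. The lysosomal, monocyte and Ly-6Chi means are lowest in the Ccr2-/- arrays, and the NK cell mean is highest there. The Ly-6Chi list includes the gene Ccr2 itself.

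The wider lysosomal system was read from 6 lists with 112 further genes, of which 102 were measured. In Ccr2-/- against wild type monocytes 47 of them fell and 9 rose, with a median log2 change of -0.249. Over all genes 8.38% fell and 4.91% rose, with a median of 0.009. Of genes with a mean intensity over 1000, 19.5% fell and 10.9% rose. The counts of each of the 6 lists stand beside these same shares. Some genes of these lists had a mean intensity under 1000, among them Mcoln2, Mitf and Tfec, and their number was not counted. Of 32 other hydrolases and cofactors, 19 fell and 1 rose. Dnase2a, the acid DNase that digests engulfed DNA, had wild type arrays at 1301 to 1425 and Ccr2-/- arrays at 664 to 739, or 0.506-fold (adjusted p = 0.000598). Scpep1, a serine carboxypeptidase, was 0.522-fold (adjusted p = 0.000653) and Naaa, an acid amidase, was 0.492-fold (adjusted p = 0.00101).

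The V-ATPase, which pumps protons into the lysosome, had 9 of 16 measured genes that fell and 0 that rose. Atp6v0a1, a subunit of its membrane sector, was 0.533-fold of wild type (adjusted p = 0.00132), and Atp6v1a, the catalytic subunit, was 0.696-fold (adjusted p = 0.00255). Of 31 other membrane proteins and transporters, 9 fell and 4 rose. Slc29a3, a nucleoside transporter, was 0.593-fold (adjusted p = 0.000834), Slc17a5, the sialic acid exporter, was 0.61-fold (adjusted p = 0.00139), and Mcoln2, a channel related to Mcoln1, rose 1.67-fold (adjusted p = 0.00271).

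Genes that sort enzymes to lysosomes moved both ways, and of 12 measured 5 fell and 3 rose. Igf2r, the cation-independent mannose 6-phosphate receptor, rose 1.94-fold (adjusted p = 0.0012), from 574, 597 and 626 in wild type to 1278, 1092 and 1130 in Ccr2-/- monocytes. Gnptab, which begins the mannose 6-phosphate tag, rose 1.25-fold (adjusted p = 0.00726), whereas Nagpa, which uncovers the tag, was 0.772-fold (adjusted p = 0.00726). Neither passed when arrays were centred on their medians (adjusted p = 0.168 for Gnptab and 0.0865 for Nagpa). Sort1, sortilin, a further sorting receptor, was 0.57-fold (adjusted p = 0.00082). Among 7 cystatins and related inhibitors of cysteine proteases, Cst7, cystatin F, rose 2.22-fold (adjusted p = 0.00126), with wild type arrays at 1453 to 1678 and Ccr2-/- arrays at 3256 to 3721. Cstb, cystatin B, was 0.68-fold (adjusted p = 0.00424).

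The 4 genes of the MiT family, transcription factors among which TFEB, TFE3 and MITF are known to drive lysosomal genes, passed the test as lower in Ccr2-/- monocytes, Tfeb less firmly than the rest. Tfec, which is expressed mainly in macrophages, read 1032, 742 and 828 in wild type, 457, 491 and 499 in Ccl2-/- and 219, 257 and 260 in Ccr2-/- monocytes, or 0.285-fold (adjusted p = 0.000342). Mitf read 1001, 930 and 891, then 517, 564 and 766, then 374, 378 and 408 in the same order, or 0.411-fold (adjusted p = 0.00086). Neither gene overlapped between any pair of genotypes. Tfe3 was 0.686-fold (adjusted p = 0.00115) and Tfeb 0.842-fold (adjusted p = 0.037). The call of Tfeb was lost without Ccl2-/- replicate 2 or any array of the other genotypes (adjusted p up to 0.138), with centring (0.167), with quantile normalization and with the replicate number as a block (0.0874), whereas those of the other 3 held under every setting tried. Of the members with the long core printed above, Ctsd rose while Mcoln1 and Ctsa fell, calls that were each lost without some single arrays. The other members with an E-box core fell, Lamp1 and Ctsl among them. Members with a window but no E-box core fell as well, all but Arsb, Cd63 and Tpp1. Whether the cores bear on these changes was not tested.

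**Figure D5:**
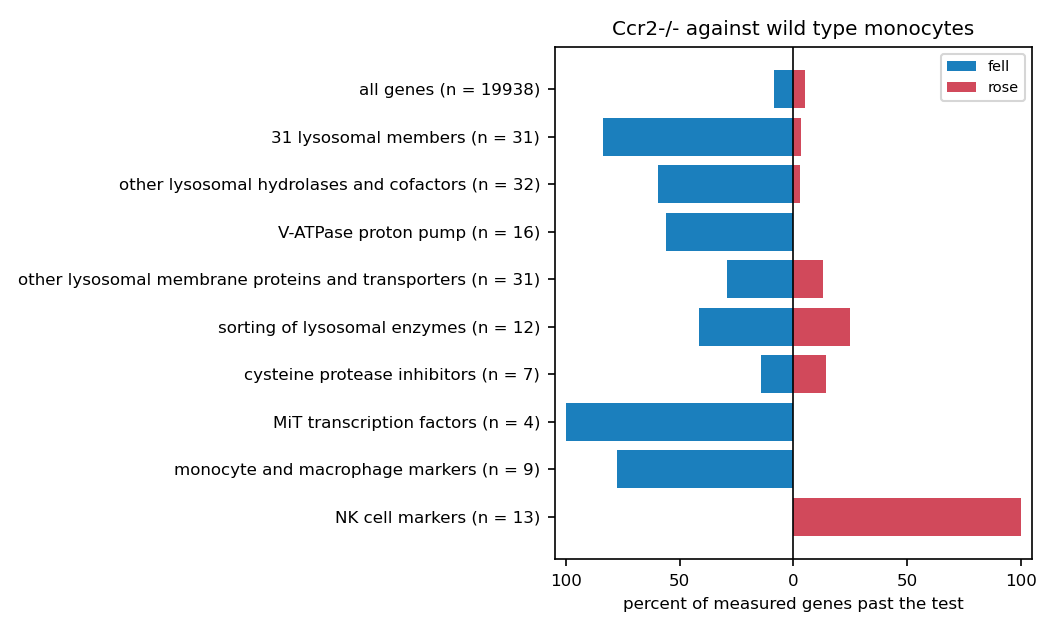
Percent of the measured genes of each list that fell (bars to the left) or rose (bars to the right) in Ccr2-/- against wild type monocytes at a limma adjusted p under 0.05. Of the lysosomal members 26 of 31 fell, of the MiT factors 4 of 4 fell, and of the NK cell markers 13 of 13 rose.

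Against wild type, 0 of the 102 further genes passed in Ccl2-/- monocytes, where 30 were lower and 8 higher at an unadjusted p under 0.05 in limma, beside 6.32% and 6.78% of all genes. The smallest adjusted p among the genes named here was that of Tfec, at 0.561-fold (adjusted p = 0.0627). Between the knockouts 16 fell and 1 rose in Ccr2-/- monocytes, beside 2.87% and 0.732% of all genes. Of genes with a mean intensity over 1000, 7.84% fell and 1.03% rose. Tfec was 0.508-fold of its Ccl2-/- level (adjusted p = 0.0141), Scpep1 was 0.572-fold (adjusted p = 0.00906), and Mcoln2 was the gene that rose, 1.57-fold (adjusted p = 0.0221). Tfec was lost without Ccr2-/- replicate 1 or 2 (adjusted p up to 0.0762), and Scpep1 without Ccr2-/- replicate 2 (0.0647) and in the fit of the 6 arrays compared. Mcoln2 was lost without Ccl2-/- replicate 3 or any Ccr2-/- array (adjusted p up to 0.104), with centring (0.078), with the block (0.0568), with quantile normalization and in the fit of 6 arrays.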

How the data were processed

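The authors hybridised RNA of pooled blood monocytes to Affymetrix Mouse Gene 1.0 ST arrays and deposited linear intensity values made with dChip, 1 per transcript cluster and array. Its version, normalization and expression model are not given in the sources used here. Of 35512 clusters, 21789 carried 1 gene symbol, 1621 several and 12102 none, and only those with 1 symbol were used. For 999 genes with several clusters, the brightest by mean log2 was kept. Symbols were checked against RefSeq by Entrez ID, which matched 21698 clusters and changed 0 symbols. Intensities were raised to at least 1 and logged to base 2, and a genotype model over the 9 arrays was run in R 4.3.3 with limma 3.58.1 (lmFit, eBayes), with Benjamini-Hochberg adjustment over 19938 genes and no replicate block. The fit was tested on simulated data. The number of arrays, 3 per genotype, limits the precision. Lists other than the members were written by hand. The genes named outside the members were the up to 4 with the smallest p of each list in each comparison, all MiT factors and the targeted genes, of which not all are printed. The members, lists and tests were chosen with earlier results of these data known. Promoter sequences are RefSeq's for GRCm38.p6. Alternatives were quantile normalization, median centring, leaving out genes whose mean was 100 or less, an offset of 50, an intensity trend in the variances, averaging the clusters of a gene, fits of 6 arrays, the replicate number as a block, and each array left out.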

Additional observations from a re-analysis of the deposited data

How the results depend on the processing

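Replicate numbers are shared by the genotypes, but 9 pairs of same-numbered arrays had correlations of deviations from -0.18 to 0.562, with 4 over 0.1, and not every array correlated best with one of its own number, so the numbers were not taken as pairs. With the replicate block, 23 members were called in Ccr2-/- against wild type in place of 27, 1 in place of 12 between the knockouts and 0 in Ccl2-/- against wild type, and the other lysosomal genes called between the knockouts went from 17 to 5. The calls of Ccr2-/- against wild type were 19 with centring and 29 with an intensity trend, and 20 to 28 members were called when an array was left out. Between the knockouts, members called were 5 with quantile normalization, 0 with centring, 26 with the trend and 0 in the fit of 6 arrays, and other lysosomal genes called were 10, 2, 32 and 1. The median change of the members between the knockouts was -0.245 with centring. In Ccl2-/- against wild type the trend gave 2 members (Ctsl and Npc2) and 6 other genes, an offset of 50 gave 1 other gene, centring moved the members' median to -0.255, and group medians put 5 members past the size limits in place of 9.

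Leaving out 1 array at a time, members called ranged from 0 to 1 in Ccl2-/- against wild type and 0 to 13 between the knockouts, and other genes called from 0 to 9 and 0 to 28, with 40 to 61 in Ccr2-/- against wild type. The members' median ranged from -0.175 to -0.108 (Ccl2-/- against wild type), -0.495 to -0.431 (Ccr2-/- against wild type) and -0.343 to -0.267 (between the knockouts), and members past the size limits from 3 to 9, 24 to 26 and 16 to 22. The fewest for Ccl2-/- against wild type, 3 and 4, came without wild type replicate 1 and without Ccl2-/- replicate 1.

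Only values without a call changed sign. In Ccl2-/- against wild type these were Arsb (-0.0738 with centring), Cd68 (0.015 with quantile normalization), Nagpa (-0.0833 with centring) and Mcoln2 (-0.0218 with quantile normalization and -0.0283 with centring). When 1 array was left out, log2 changes in that comparison ranged across 0 for Ctsb (-0.0412 to 0.0152), Tpp1 (-0.0334 to 0.0275), Cd68 (-0.0502 to 0.0287), Mcoln1 (-0.0453 to 0.00507), Slc15a3 (-0.134 to 0.0149) and Mcoln2 (-0.0268 to 0.181). Arsb was -0.0212 with centring and -0.0018 to 0.0445 without an array in Ccr2-/- against wild type, and 0.0185 with quantile normalization, 0.0526 with centring, 0.00404 with the mean of its clusters and -0.0413 to 0.0023 without an array between the knockouts. The cause of these changes was not tested.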
